A study of Mus musculus with 4 samples.

Results

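The immediate early AP-1, EGR and DUSP genes described here are 10 genes, Fos, Fosb, Fosl2, Jun, Junb, Jund, Egr1, Dusp1, Dusp2 and Ier2. They were taken by symbol from the 55339 rows of the deposited expression table, and all 10 were found. Polyadenylated RNA was sequenced from mouse leukemia cells of the bone marrow, strain C57BL/6. There were 2 libraries of genotype YBX1-/-, titled cKO and numbered 1 and 3, and 2 libraries of genotype WT, numbered 4 and 5. The leukemia driver, the Cre line behind the knockout (KO), the age of the mice and whether the replicates come from separate animals are not given in the sources used here, so the p-values measure only the spread between these libraries, which may be technical. YBX1 carries a cold-shock domain and binds mRNA, and the series title asks how it affects mRNA stability and the survival of myeloid leukemia cells.

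Immediate early genes are transcribed within minutes of a growth factor, cytokine or stress signal, without new protein synthesis, largely through MAP kinases that act on SRF with its ternary complex partners and on CREB. FOS and JUN family proteins pair through leucine zippers to form the AP-1 transcription factor, EGR1 is a zinc finger factor, and DUSP1 and DUSP2 remove phosphate from MAP kinases and so close the loop. Many of their mRNAs are short-lived because AU-rich elements in the 3′ untranslated region recruit decay factors, and in myeloid cells the set is induced by inflammatory and differentiation signals and also by handling of the cells.

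The values are the authors' normalized log2 expression, one per gene and library, without counts, so the depth behind each value is unknown. WT replicate 4 stood apart: Pearson's r over the 17303 genes tested was 0.69 to 0.71 between it and the other libraries and 0.93 to 0.96 among the others, a description across genes, which are not independent replicates. In 13.7% of those genes it lay over 3 log2 above WT replicate 5, and in 46.0% it lay below. Ybx1 itself was at 7.29 and 8.33 in the KO libraries, against 19.70 and 10.002 in WT replicates 4 and 5. The limma difference of each of the 10 genes is therefore given with and without WT replicate 4, and the other genes, Nr4a1 apart, are given by their library values alone. KO replicate 3 differs from the other libraries in its title, where RNA-seq is followed by 2 rather than 1. Of the myeloid markers, 15 of 15 were tested, and their summed level, the log2 of the sum of the linear values, was 17.11 and 17.13 in KO cells, against 24.46 and 16.55 in WT replicates 4 and 5. Most of that sum was Elane, at 16.48 and 16.55 in KO cells, against 23.52 and 15.84 in WT, while 6 of the 15 had both KO values below WT replicate 5 and 5 had both above. Over all genes tested, 33.4% had both below and 41.8% both above. Of the 11 T and NK cell markers 4 were tested, and Cd3e, Cd3g and Trbc2 were listed at 0 in every library. Among those tested, Cd28 was at -0.98 and 3.79 in KO cells, against 4.19 and 3.96 in WT. Cd2 was at 2.23 and 2.45 in KO cells, against 3.39 and 0.55 in WT. Of the 11 B and plasma cell markers 5 were tested, and 2 were listed at 0 in every library, Mzb1 among them. In KO replicates 1 and 3 and then WT replicates 4 and 5, the summed level was 9.39, 9.50, 19.38 and 8.49 for T and NK cell markers, 8.90, 8.001, 6.60 and 8.82 for B and plasma cell markers, and 2.69, 4.77, 6.95 and 4.23 for erythroid markers. It was 3.81, 2.71, 3.83 and 5.56 for megakaryocyte markers and 6.66, 6.34, 7.33 and 6.22 for endothelial and stromal markers. The T and NK cell sum was nearly all Nkg7, at 9.37 and 9.45 in KO cells, against 19.38 and 8.41 in WT. The B and plasma cell sum was mostly Ighm, at 8.25 and 6.66 in KO cells, against 5.23 and 8.32 in WT, and Cd79b, at 7.41 and 7.18, against 5.16 and 6.996. Elane, Nkg7, Ighm, Cd79b, Cd28 and Cd2 were singled out after their values were seen. The part of these levels in the results below was not tested. In bulk RNA, fewer cells of a type and less RNA per cell cannot be told apart.

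The AU-rich pentamer ATTTA was searched on the sense strand of the 3′ untranslated regions, since it is the core of the element that shortens the life of several of these mRNAs. One principal transcript per gene was read from GENCODE M21 on GRCm38, and overlapping copies were counted. Fos held 4 copies in 815 bases, Dusp1 4 in 690, Dusp2 4 in 581, Jun 4 in 1233, Fosl2 8 in 4653, Junb 2 in 485, Jund 1 in 533, Fosb 1 in 2145 and Ier2 0 in 755. The median over 15966 genes was 1 copy, and 62.1% of them held at least 1. Per 1000 bases, Dusp2 had 6.88, Dusp1 5.80, Fos 4.91, Junb 4.12, Jun 3.24, Jund 1.88, Fosl2 1.72, Fosb 0.47 and Ier2 0.0, against a median of 1.15, so Fosb and Ier2 lay below it. The longer form TTATTTATT was found in Fos, Fosl2 and Dusp1 and in 7.01% of the genes. For the members with a pair of copies within 30 bases, the 30 bases around the first such pair after the stop codon are shown, with ATTTA in capitals. Later pairs may lie closer together. Whether decay factors act through these copies was not tested. They lie at chr12:85477100-85477129 for Fos, chr5:32156864-32156893 for Fosl2 and chr4:95049207-95049236 for Jun, and at chr17:26506157-26506186 for Dusp1 and chr2:127337998-127338027 for Dusp2, with Jun and Dusp1 on the minus strand.
Fos: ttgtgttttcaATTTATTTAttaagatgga
Fosl2: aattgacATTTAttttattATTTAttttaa
Jun: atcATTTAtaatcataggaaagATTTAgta
Dusp1: agctggtccttATTTATTTAacacccccct
Dusp2: aaattaATTTAattaattaATTTActatat
The Fos and Dusp1 windows share the overlapping run of copies, and in the windows shown for Fosl2, Jun and Dusp2 the copies are apart. The match is a description of the letters and not of a decay rate.

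The FOS family supplies the AP-1 subunits that bind DNA only as partners of JUN proteins. Fos, the classic serum-induced member (chromosome 12, 85473890 to 85477273, plus strand, GRCm38), was at 6.59 and 6.83 in KO replicates 1 and 3, against 5.31 and 7.52 in WT replicates 4 and 5. Both KO values lay between the WT values, so the groups overlapped. The limma difference, KO minus WT, was 0.30 (SE 0.96, adjusted p = 0.931), and without WT replicate 4 it was -0.81 (SE 0.36, adjusted p = 0.543). Fosb, which also gives rise to a shorter splice form that lacks the transactivation end (chromosome 7, 19302696 to 19310051, minus strand), was at 1.22 and 1.79 in KO cells, against 3.86 and 3.93 in WT. Here the groups did not overlap, and the libraries were 0.57 apart in KO cells and 0.07 in WT. The mean was 1.504 ± 0.40 in KO cells and 3.90 ± 0.05 in WT (SD, n = 2 each). Of the 10 genes, it was the one whose limma p fell under 0.05 before adjustment. The difference of -2.39 (SE 0.73) did not pass after it (adjusted p = 0.826), and without WT replicate 4 it was -2.43 (SE 0.68, adjusted p = 0.483). Against WT replicate 5 alone the KO mean lay 5.39-fold lower. These are low values, since Fosb was the lowest of the 10 genes in every library. It lay below the median of all genes tested, which was 5.39 and 5.24 in KO cells and 4.97 and 5.39 in WT.

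Fosl2, which encodes the AP-1 subunit FRA2 (chromosome 5, 32135801 to 32157842, plus strand), was at 7.24 and 6.76 in KO cells, against 5.43 and 7.77 in WT replicates 4 and 5. As for Fos, both KO values lay between the WT values. The limma difference of 0.40 (SE 0.998, adjusted p = 0.914) became -0.77 (SE 0.40, adjusted p = 0.579) without WT replicate 4.

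The JUN family can pair with itself or with FOS proteins. Jun, the strongest activator of the family (chromosome 4, 95049034 to 95052222, minus strand), was at 9.93 and 9.10 in KO cells, against 7.73 and 10.07 in WT replicates 4 and 5. Junb, which restrains JUN and limits myeloid proliferation in mice (chromosome 8, 84974484 to 84978718, minus strand), was at 12.41 and 12.49 in KO cells, against 10.85 and 13.02 in WT. For both genes the KO values lay between the WT values, and the Junb KO pair was 0.07 apart. The limma difference was 0.62 for Jun (SE 1.13, adjusted p = 0.883) and 0.51 for Junb (SE 2.04, adjusted p = 0.942), and without WT replicate 4 it was -0.55 (adjusted p = 0.704) and -0.57 (adjusted p = 0.541). Jund, the member least dependent on stimulation (chromosome 8, 70698949 to 70700616, plus strand), was at 5.96 and 6.16 in KO cells, against 5.27 and 5.73 in WT. It was the only one of the 10 genes with both KO values above both WT values, and the gap between the groups, between 5.73 and 5.96, was narrower than the distance between the WT libraries, 0.46. Its limma difference was 0.56 (SE 0.67, adjusted p = 0.836), and without WT replicate 4 it was 0.33 (SE 0.495, adjusted p = 0.797). Quantile normalization of the 4 libraries brought the Jund difference to 0.017.

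Egr1, a zinc finger factor that promotes monocytic differentiation, was at 8.11 and 6.98 in KO cells, against 7.41 and 8.53 in WT replicates 4 and 5. The groups overlapped, and the libraries within each genotype were about as far apart, 1.13 in KO cells and 1.12 in WT. The limma difference was -0.43 (SE 0.82, adjusted p = 0.889) and without WT replicate 4 it was -0.99 (SE 0.62, adjusted p = 0.631).

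**Figure D1:**
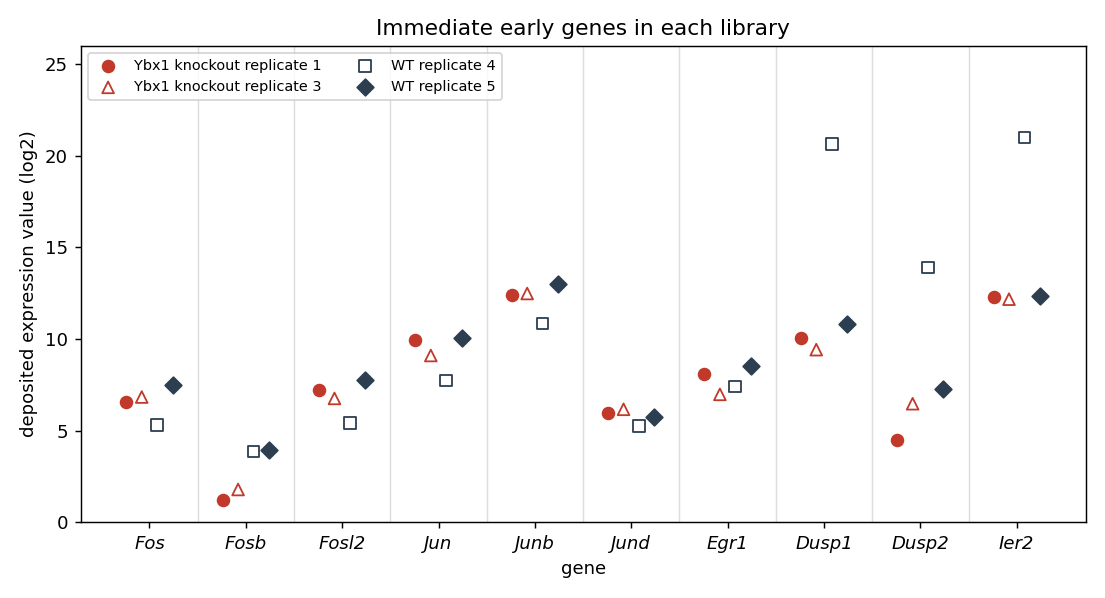
Deposited log2 expression value of each of the 10 genes (vertical axis) in Ybx1 KO replicates 1 and 3 (red) and WT replicates 4 and 5 (dark), 1 point per library. WT replicate 4 is far above the other libraries in Dusp1, Dusp2 and Ier2, at 13.91 to 20.998, and below them in Fos, Fosl2, Jun, Junb and Jund.

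The MAP kinase phosphatases and Ier2 were the members in which WT replicate 4 decided the size of the difference. Dusp1, which dephosphorylates p38, JNK and ERK (chromosome 17, 26505590 to 26562128, minus strand), was at 10.03 and 9.42 in KO cells, against 20.63 and 10.84 in WT replicates 4 and 5. Dusp2, a nuclear phosphatase of ERK and p38 in leukocytes (chromosome 2, 127336159 to 127338376, plus strand), was at 4.51 and 6.47 in KO cells, against 13.91 and 7.27 in WT. Ier2, an early response gene whose product is nuclear (chromosome 8, 84661331 to 84662852, minus strand), was at 12.31 and 12.18 in KO cells, against 20.998 and 12.33 in WT. In all 3 genes both KO values lay below both WT values, with a gap of 0.02 for Ier2, from 12.31 in the higher KO library to 12.33 in the lower WT library. WT replicate 4 lay above WT replicate 5 by 9.79, 6.64 and 8.67 in Dusp1, Dusp2 and Ier2, which is more than any of these KO values lay below WT replicate 5.

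The limma difference was -6.01 for Dusp1 (SE 4.001, adjusted p = 0.826), -5.10 for Dusp2 (SE 2.36, adjusted p = 0.826) and -4.42 for Ier2 (SE 5.98, adjusted p = 0.856), and none passed. Without WT replicate 4 the differences were -1.12 (SE 0.37, adjusted p = 0.502), -1.78 (SE 1.09, adjusted p = 0.619) and -0.09 (SE 0.25, adjusted p = 0.903). On the linear scale the KO mean of the log2 values lay 2.17-fold below WT replicate 5 for Dusp1 and 3.43-fold for Dusp2, and 1.06-fold for Ier2. The 2 KO libraries themselves differed by 1.96 in Dusp2.

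The 300 bases around the RefSeq start, 250 before and 50 after it (GRCm38.p6), are shown for Fosb, Dusp1 and Dusp2, the members whose KO values lay farthest below both WT values. Searched on both strands were the CArG box bound by SRF, the CRE TGACGTCA bound by CREB, the AP-1 site TGACTCA, the EGR site GCGGGGGCG and the TATA box TATAAA, none of which overlapped another in these windows. Capitals mark the matches: the EGR site in Fosb at position -50 and in Dusp2 at position -98 from the start, and the CRE in Dusp1 at -143. The windows are chr7:19309996-19310295 for Fosb and chr17:26508423-26508722 for Dusp1, both minus strand, and chr2:127335909-127336208 for Dusp2, plus strand. The Dusp1 window lies inside the GENCODE span of the gene, which runs on to 26562128, so the RefSeq start is not the outer end of that span.
Fosb: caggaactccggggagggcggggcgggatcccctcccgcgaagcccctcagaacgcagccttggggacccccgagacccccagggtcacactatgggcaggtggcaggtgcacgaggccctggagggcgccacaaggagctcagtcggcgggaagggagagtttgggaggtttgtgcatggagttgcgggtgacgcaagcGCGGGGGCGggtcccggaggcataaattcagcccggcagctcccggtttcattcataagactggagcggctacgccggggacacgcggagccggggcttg
Dusp1: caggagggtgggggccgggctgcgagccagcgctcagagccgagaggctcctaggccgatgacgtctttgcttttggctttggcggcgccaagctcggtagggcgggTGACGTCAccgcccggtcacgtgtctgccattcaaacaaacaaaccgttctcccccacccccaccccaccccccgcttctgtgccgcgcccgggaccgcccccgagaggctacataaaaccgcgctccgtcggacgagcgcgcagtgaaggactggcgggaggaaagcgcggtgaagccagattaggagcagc
Dusp2: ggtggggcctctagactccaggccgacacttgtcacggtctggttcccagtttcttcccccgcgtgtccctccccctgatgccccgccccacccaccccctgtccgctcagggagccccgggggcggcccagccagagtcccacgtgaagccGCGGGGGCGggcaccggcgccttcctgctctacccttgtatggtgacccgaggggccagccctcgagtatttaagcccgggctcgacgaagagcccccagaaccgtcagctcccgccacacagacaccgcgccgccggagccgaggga
Windows were found for 8 of the 10 genes. The Jund window, chr8:70697489-70697788, ends before the GENCODE start of the gene at 70698949. Its motif results may therefore not describe the Jund promoter. The EGR site was in 3 of the 8 windows, the third being Fosl2, and in 2.91% of 32851 windows. Its letters are only G and C, and the G and C content was 70.7% in the Dusp2 window, 68.3% in Fosb and 64.7% in Fosl2. The median over all windows was 52.7%, so the 2.91% is not matched for base content. The CRE was in 1 of the 8 and in 1.79% of windows, and the TATA box was in Fos and Junb and in 13.6% of windows. The TATA box began at position -33 in Fos and at position 1, the RefSeq start, in Junb. That RefSeq start lies outside the GENCODE span of Junb, which ends at 84978718. No window of the 8 held an exact match to the CArG box, which 1.63% of windows held, or to the AP-1 site, which 5.2% held. The windows begin 250 bases before the start, so sites farther upstream could not be found. Fosl2 holds the same EGR letters as Fosb and Dusp2 and had overlapping groups. Whether the site bears on the values of any of these genes was not tested. The Fosl2 window, chr5:32136222-32136521, lies inside the GENCODE span of the gene, which begins at 32135801. A match is a description of letters, and binding was not measured.

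Across the 10 genes, 0 passed in limma at an adjusted p under 0.05, against 0.0% of the 17303 genes tested, and 1 had an unadjusted p under 0.05, against 651 of all genes. All 10 passed the filter on low values. Both KO values lay below both WT values in 4, Fosb, Dusp1, Dusp2 and Ier2, where the background was 18.8%, and above both in 1, Jund, where it was 17.3%. Against WT replicate 5 alone, both KO values were lower in 9 of the 10 genes, all but Jund, while the same held for 33.4% of the genes tested, and 41.8% had both values higher. The median difference from WT replicate 5 was -0.79 over the 10 genes and 0.07 over all genes tested. The first quartile of that difference over all genes was -0.50, and 8 of the 10 genes lay below it, all but Jund and Ier2. The comparison has 1 WT library on its other side, limma without WT replicate 4 called 0 of the 10 and 0 of 16028 genes (0.0%; 1 member and 1618 genes at an unadjusted p under 0.05), and these genes were chosen with earlier results of the data known.

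Against WT replicate 4 alone the picture split. The KO mean lay below it in 4 genes, down to -10.91 in Dusp1, and above it in 6, up to 1.79 in Jun, with a median of 0.46 over the 10 genes and -0.46 over all genes tested. Without WT replicate 5, limma called 4 of the 10 genes, where 25.6% of 16922 genes were called. Dusp1 (-10.91, adjusted p = 0.00291), Dusp2 (-8.42, adjusted p = 0.0242) and Ier2 (-8.75, adjusted p = 0.00321) were then lower in KO cells and Junb was higher (1.60, adjusted p = 0.0261). Over the alternatives run, the adjusted p of each of these 4 genes ranged from the value given here to 0.99995. The direction for Fos, Fosl2, Jun, Junb and Egr1 depended on which WT library was used, and that for Fosb, Dusp1, Dusp2, Ier2 and Jund did not, although against WT replicate 5 the differences of Ier2 and Jund were smaller than their SE. Within the libraries whose titles carry the number 1, which leaves KO replicate 1 alone, limma called 0 of the 10, where 0.669% of 16744 genes were called.

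**Figure D2:**
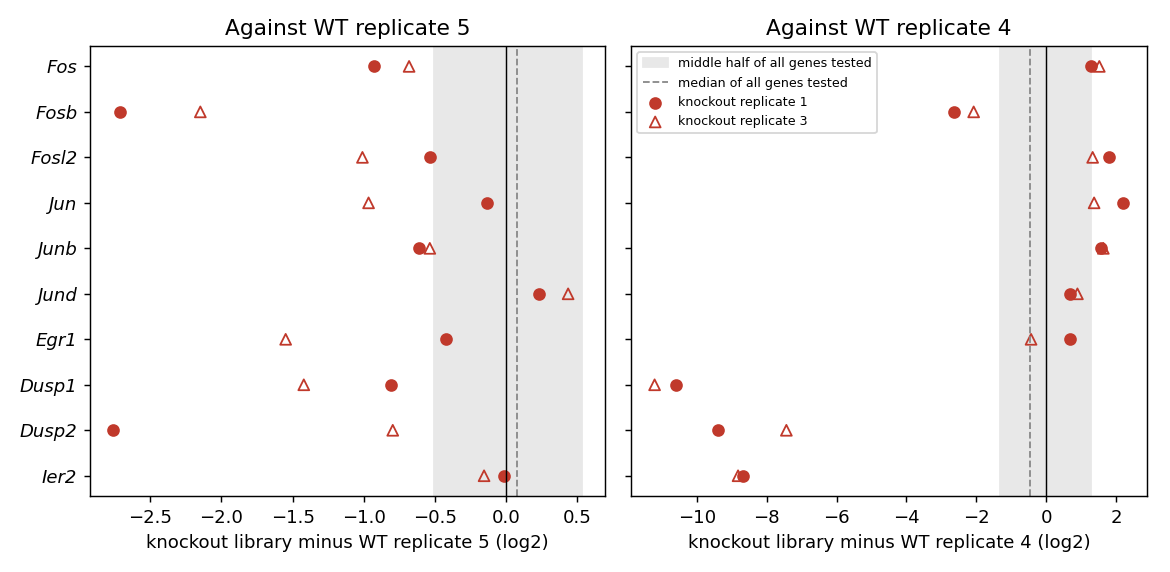
Difference of each KO library from WT replicate 5 (left) and from WT replicate 4 (right) for the 10 genes, on the log2 scale with separate axis ranges. The grey band is the interquartile range and the dashed line the median of the KO mean minus that WT library over all 17303 genes tested. On the left 9 genes have both points below 0, and on the right Dusp1, Dusp2 and Ier2 lie between -11.21 and -7.44 while Fos, Fosl2, Jun, Junb and Jund lie above 0.

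The authors' deposited table gives a fold change that is headed as WT against cKO and is read here as KO over WT, since its sign differed from KO minus WT of the library means in only 15.7% of 17185 genes. Of the 10 genes, the authors' deposited table gives 1 an adjusted p under 0.05, Dusp2, with a log2 fold change of -6.33 (adjusted p = 0.00215). Fosb was listed there at -2.53, with a deposited p of 0.50 before adjustment. Over all genes, 3.96% were called lower and 0.157% higher in the authors' deposited table. The sign went against the library means in 4 of the 10 genes. Egr1 was listed at 1.13 and Fos at -0.11 in the authors' deposited table. Jund was listed there at -6.66 and Junb at -3.95, although Jund was higher in both KO libraries and Junb lay between the WT values. For Dusp1, Ier2, Jund and Fosl2 the authors' deposited table lists a p of exactly 1, as it does for 9.01% of genes, whatever the fold change, which is -9.97 for Dusp1 and -7.28 for Ier2. No source used here gives the reason for these p-values.

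**Figure D3:**
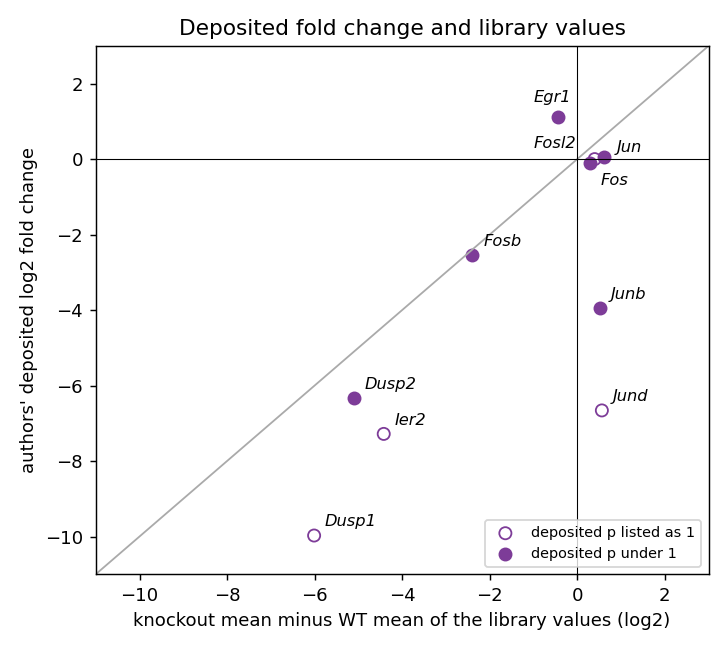
The authors' deposited log2 fold change (vertical) against KO mean minus WT mean of the deposited library values (horizontal) for the 10 genes, with the line of equality. Open points have a deposited p listed as 1. Fosb lies next to the line, and Junb and Jund have positive differences but deposited fold changes of -3.95 and -6.66.

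The rest of the pathway was read from 6 lists of genes chosen by function, and limma called 0 genes of each. The counts against WT replicate 5 stand beside 33.4% of all genes tested with both KO values below it and 41.8% above. Of 13 other AP-1 bZIP genes, 7 had both KO values below WT replicate 5 and 4 above. Batf, the AP-1 partner of IRF factors, was at 9.31 and 9.18 in KO cells, against 19.71 and 9.59 in WT replicates 4 and 5, again with WT replicate 4 far above the others. Fosl1, which encodes FRA1, was at 5.32 and 5.83 in KO cells, against 4.97 and 5.91 in WT. The stress factor Atf3 was at 3.55 and 4.54 in KO cells, against 4.90 and 4.55 in WT, and the small MAF gene Maff at 6.33 and 6.58, against 5.15 and 6.51.

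Of 6 tested genes among the other EGR, NAB and NR4A genes, 3 lay below WT replicate 5 in both KO libraries and 1 above. Nr4a1, an orphan nuclear receptor induced with Egr1, was at 9.32 and 8.62 in KO cells, against 9.86 and 10.51 in WT, so both KO values lay below both WT values. Its limma difference was -1.22 (SE 0.90, adjusted p = 0.826), and without WT replicate 4 it was -1.54 (adjusted p = 0.480). Without WT replicate 4, Nr4a1 passed in limma as lower in KO cells only with each library centred on its median (-1.504). It did not pass with quantile normalization (-1.56) or on the values as deposited, and each of these fits rests on 1 WT library. Nab2, a corepressor of EGR proteins, was at 5.96 and 5.93 in KO cells, against 5.01 and 6.75 in WT, and Egr2 at 4.35 and 3.67, against 4.97 and 4.001. Egr3, at -0.03 and -0.04 in KO cells and 0.81 and -0.03 in WT, did not pass the filter on low values.

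Of 32 tested genes among the other immediate early genes, 19 lay below WT replicate 5 in both KO libraries and 10 above, with a median difference from it of -0.49. The antiproliferative gene Btg2 was at 9.65 and 9.93 in KO cells, against 17.65 and 10.43 in WT replicates 4 and 5. The zinc finger gene Klf6 was at 10.61 and 10.21 in KO cells, against 20.41 and 11.12 in WT. In both genes, as in Dusp1, the KO values lay below both WT values and WT replicate 4 far above the other libraries. Zfp36, whose protein tristetraprolin binds AU-rich elements, was at 9.38 and 9.16 in KO cells, against 8.44 and 9.77 in WT. Ier3 was at 7.33 and 7.92 in KO cells, against 5.58 and 8.11 in WT, and Ier5 at 5.71 and 6.55, against 5.18 and 6.29.

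The 11 other MAP kinase phosphatases were spread on both sides of WT replicate 5, with 6 below and 5 above. Dusp6, a cytoplasmic ERK phosphatase, was at 4.78 and 2.88 in KO cells, against 4.30 and 1.49 in WT. Dusp5, a nuclear ERK phosphatase, was at 6.42 and 6.78 in KO cells, against 5.20 and 6.10 in WT, above both WT libraries and so opposite in position to Dusp1 and Dusp2. Dusp16, which acts on JNK and p38, was at 7.55 and 7.78 in KO cells, against 7.44 and 8.47 in WT.

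Of the 12 serum response factors and CREB genes, a list of upstream regulators that is not limited to activators, 9 lay below WT replicate 5 in both KO libraries and 1 above, with a median difference of -0.63. Srf was at 3.04 and 4.27 in KO cells, against 18.92 and 3.31 in WT replicates 4 and 5. The ternary complex factor Elk1 was at 4.65 and 4.72 in KO cells, against 4.81 and 5.62 in WT, and Creb1 at 7.80 and 7.49, against 5.37 and 6.62. Of 24 tested MAP kinase pathway genes, 9 lay below WT replicate 5 in both KO libraries and 11 above, with a median of 0.07. Mapk3, the ERK1 gene, was at 8.07 and 7.68 in KO cells, against 5.57 and 8.04 in WT, Mapk8 at 8.88 and 8.44, against 7.41 and 8.63, and Mapk14, the p38 alpha gene, at 8.49 and 8.61, against 8.76 and 8.44.

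**Figure D4:**
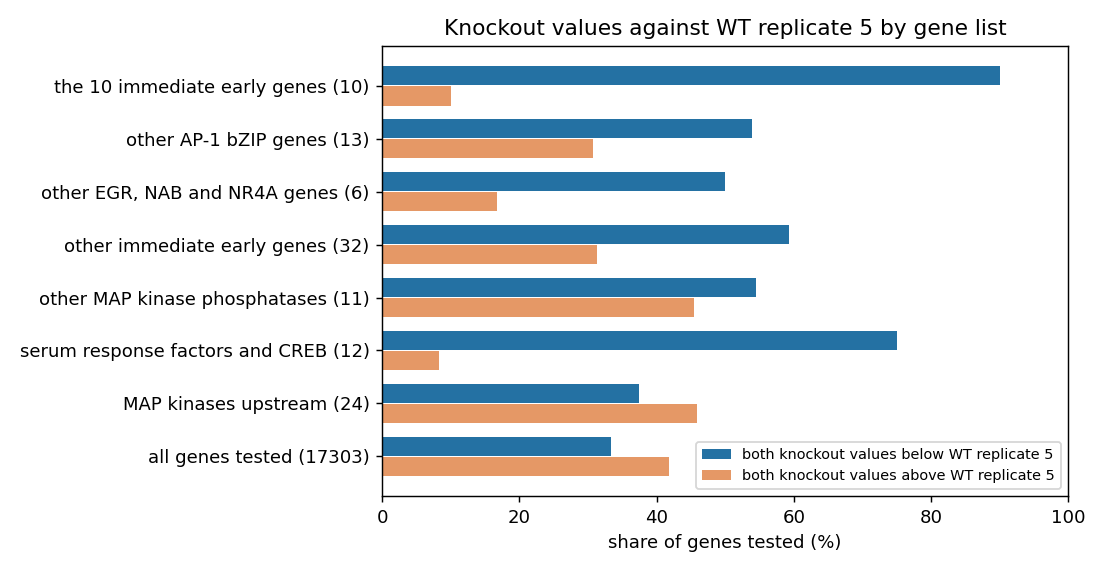
Share of the genes tested in each list (number in parentheses) with both KO values below (blue) or above (orange) WT replicate 5, with all 17303 genes tested at the bottom. The 10 immediate early genes have 9 below and 1 above, where all genes have 33.4% below and 41.8% above.

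The mean profile of the 10 genes, each centred on its own mean over the 4 libraries, was -0.79 and -0.80 in KO cells and 1.52 and 0.08 in WT replicates 4 and 5. Furin, a proprotein convertase gene, had the most similar centred values, with a Euclidean distance of 0.08 over the 4 libraries, at 9.55 and 9.54 in KO cells and 11.96 and 10.48 in WT. Vasn, Tvp23a, Unc93a and Klhdc8b came next, at distances of 0.15 to 0.23. The mean profile combines 3 genes that were far higher in WT replicate 4 with 7 that were lower there than in WT replicate 5, so it describes no single member.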

How the data were processed

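The deposited table holds log2 expression values normalized by the authors (the method is not given in the sources used here), with a log2 fold change and p-values of the authors' comparison, per the file headers. Tools in the submitters' processing notes, with no role or order, are CASAVA, HISAT2 (2.1.0), featureCounts and DESeq2, and the build is GRCm38. No counts were given, so depth is unknown and no interval that needs it was computed.

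The deposited values were tested in R 4.3.3 with limma 3.58.1 and its mean-variance trend, 2 KO against 2 WT libraries, on genes with a log2 value of at least 0 in at least 2 libraries. Benjamini-Hochberg adjustment ran over all genes tested, and the fit was tested on simulated data. All simulated libraries had the same spread, so that test does not show how the fit behaves with a library like WT replicate 4. Where 1 library of a genotype is left, it is assumed to vary like the others.

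Members, lists and alternatives were chosen with earlier results of these data known. All members were named, other genes by their role (some of these and some markers are not reported here), and 5 genes by the distance of their centred values. Of 165 listed genes 164 were matched, 3 through a RefSeq synonym. Sequences are from RefSeq (GRCm38.p6) and GENCODE M21, and none of Egr1 is reported here. Counts of values below or above every WT value were added after the values were seen.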

Additional observations from a re-analysis of the deposited data

How the results depend on the processing

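No paired analysis was possible because the genotypes share no replicate number in the titles. Leaving out each library in turn, limma called 0 to 4335 genes and 0 to 4 members. Over all genes that was 4335 without WT replicate 5, 32 without KO replicate 1, 112 without KO replicate 3 and 0 without WT replicate 4 (1618 at an unadjusted p under 0.05). The median difference over the members then ran from -0.79 to 0.46, the members below every WT value from 4 to 9 and those above from 1 to 5. Single members ran from -0.81 to 1.40 for Fos, -0.77 to 1.57 for Fosl2, -0.55 to 1.79 for Jun, -0.57 to 1.60 for Junb and -0.99 to 0.13 for Egr1.

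With all libraries, quantile normalization turned Fos to -0.28, Fosl2 to -0.34 and Jun to -0.063, and left 0 members above every WT value. Dusp1, Dusp2, Ier2 and Junb were then at -3.70, -3.56, -0.34 and 2.0002. It moved the median of all genes to 0.16, and centring on the medians to -0.23, against -0.09 as deposited. Without WT replicate 4 and with centring, limma called 301 genes and 0 members, the member median was -0.75, 9 members lay below WT replicate 5, and Fos, Fosl2, Jun and Junb were at -0.77, -0.73, -0.51 and -0.54. With quantile normalization instead, the values were -0.79, 8 members, and -0.80, -0.78, -0.55 and -0.43, with 0 genes called. The causes were not tested. Fosb, Dusp1 and Dusp2 stayed negative in every alternative that tested them (the filter of log2 5 left out Fosb). The signs of Ier2 and Jund did not turn but came close to 0: without WT replicate 4, Ier2 was at -0.0031 with quantile normalization and -0.049 with centring, and with all libraries quantile normalization put Jund at 0.017, so no direction is shown for either. The filters, pseudocounts and limma without a trend changed no call. No counts are given, so what depth limits cannot be computed.

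For the genes named by role that are not members, limma differences changed sign in 43 instances, newly passed in 10 and kept direction without passing in 241. Leaving out each library in turn, they ran from -0.33 to 0.61 for Fosl1, -0.056 to 1.30 for Maff, -0.96 to 0.0087 for Egr2, -0.80 to 0.93 for Nab2, -0.48 to 2.05 for Ier3, -0.16 to 0.95 for Ier5, -0.50 to 0.84 for Zfp36, -0.47 to 2.34 for Dusp6, -0.80 to 0.22 for Dusp16, -15.27 to 0.34 for Srf, -0.17 to 2.30 for Mapk3 and -0.21 to 0.10 for Mapk14. Centring on the medians gave -0.073 for Nab2. Quantile normalization gave -0.0052 for Fosl1, -0.13 for Nab2, -0.12 for Ier3, -0.036 for Ier5 and -0.29 for Zfp36. Without WT replicate 4, centring gave -0.29 for Fosl1, -0.018 for Maff, 0.047 for Egr2, -0.76 for Nab2, -0.44 for Ier3, -0.12 for Ier5, -0.46 for Zfp36, 0.38 for Srf, -0.13 for Mapk3 and 0.14 for Mapk14, and quantile normalization gave -0.27 for Fosl1, -0.023 for Maff, 0.085 for Egr2, -0.77 for Nab2, -0.51 for Ier3, -0.11 for Ier5, -0.53 for Zfp36, 0.40 for Srf, -0.18 for Mapk3, -0.0029 for Mapk8 and 0.064 for Mapk14. Without WT replicate 5, those that passed included Ybx1, Batf, Btg2, Klf6 and Srf as lower and Creb1 and Mapk3 as higher in KO cells. Without WT replicate 4, Ybx1 and Nr4a1 passed in limma as lower with centring (-2.15 and -1.504). Neither passed with quantile normalization (-2.22 and -1.56).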
